A study of Mus musculus with 12 samples.

Results

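CD antigens are the leukocyte surface molecules that were numbered by the antibodies that recognise them, and their mouse genes mostly carry the symbol Cd and a number. The genes described here are the spots with a single gene symbol made of Cd, a number and at most a letter and a further number, with Cd79a, Cd79b and Cd180 left out. They were 75 spots of 69 genes, among 22134 spots that carry target sequences and 15081 single gene symbols on the array. The rule goes by names and uses no measured value, but it was set with earlier results of these data known. A name of this form does not make every product a membrane protein of blood cells: Cd5l is a secreted protein of macrophages, Cd248 is known from stromal cells, and Cd34 is shared by blood stem cells and endothelium.

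Total RNA of 12 mouse samples had been labelled with Cy3 and hybridised to spotted 2-colour arrays together with a Cy5-labelled embryonic reference RNA. According to its title, the series concerns the growth hormone receptor in the nucleus. The groups were NLS 1GH, NLS 0GH, WT 1GH and WT 0GH with 3 arrays each, lettered b, c and d. NLS is the usual abbreviation of nuclear localization signal, WT of wild type, and GH of growth hormone. The treatment entry of each of the 12 samples reads growth hormone of human sequence at 100 ng/ml, and all titles carry a 10 after the receptor name. The labels give no unit for the 0 and the 1 before GH and describe a time course, so the groups are named by these numbers only. The sources used here name no cell type, line or clone and do not say whether the letters were separate cultures, so the p-values measure only the spread between these 12 samples.

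Values are log2 ratios of the sample over the embryonic reference, each relative to the median of its array. The deposited sign was turned because 37 of 39 genes of embryo tissues lay on the sample side as deposited, and the opposite reading would turn every level below. None of those genes is a CD antigen gene. Dyes were not swapped, so a level against the reference holds any dye effect, while NLS and WT arrays carry the same orientation. Between 15939 and 19700 of 23040 spots had a value per array, and 48 to 64 of the 75 CD antigen spots. Arrays of one letter share a labelling of the reference by the dye incorporation in the labels. Across spots, arrays of one letter but different groups correlated with a median of 0.53, and arrays of one group with 0.43. The number of arrays limits the precision of all values.

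These surface molecules work in pairs of ligand and receptor and in complexes. Tetraspanins such as Cd53 and Cd82 organise other proteins into membrane patches. Cd48 and its SLAM relatives bind one another or related partners on neighbouring cells, Cd47 on a cell restrains its uptake by phagocytes, and the Cd3 chains carry the signal of the T cell receptor. Cd34 is a sialomucin used to sort blood stem and progenitor cells.

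Among spots valued on all arrays, the 3 genes with the highest levels and the gene with the lowest were chosen for their sequences. They are shown by the 250 bases before their annotated start, as the ends of the range of levels described below. The sequences are from RefSeq on GRCm38.p6 and run from 5′ to 3′ toward the start. Capitals mark a match to GAGGAA or CCGGAA on the strand shown, and these motifs both end in the GGAA core of ETS factors. GATAAG, a core of GATA factors, was searched too, and all 3 motifs were sought on both strands. Cd53 lies on the minus strand at chr3:106790150-106790399, Cd48 on the plus strand at chr1:171681742-171681991, Cd47 on the plus strand at chr16:49855404-49855653 (the first of 2 starts) and Cd34 on the plus strand at chr1:194938571-194938820.
Cd53: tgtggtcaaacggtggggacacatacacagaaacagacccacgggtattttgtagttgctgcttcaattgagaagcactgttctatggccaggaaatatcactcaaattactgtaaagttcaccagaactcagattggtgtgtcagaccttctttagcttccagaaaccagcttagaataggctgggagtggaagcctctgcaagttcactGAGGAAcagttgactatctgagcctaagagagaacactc
Cd48: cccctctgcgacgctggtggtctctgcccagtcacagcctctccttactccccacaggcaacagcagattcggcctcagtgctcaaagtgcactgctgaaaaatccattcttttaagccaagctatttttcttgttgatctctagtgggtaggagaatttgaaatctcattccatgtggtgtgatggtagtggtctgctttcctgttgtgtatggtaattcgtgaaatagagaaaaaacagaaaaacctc
Cd47: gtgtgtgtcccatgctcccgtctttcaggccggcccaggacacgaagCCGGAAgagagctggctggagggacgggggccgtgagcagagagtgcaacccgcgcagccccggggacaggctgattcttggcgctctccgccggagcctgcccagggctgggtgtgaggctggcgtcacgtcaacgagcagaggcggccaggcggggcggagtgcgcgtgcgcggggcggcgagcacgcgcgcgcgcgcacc
Cd34: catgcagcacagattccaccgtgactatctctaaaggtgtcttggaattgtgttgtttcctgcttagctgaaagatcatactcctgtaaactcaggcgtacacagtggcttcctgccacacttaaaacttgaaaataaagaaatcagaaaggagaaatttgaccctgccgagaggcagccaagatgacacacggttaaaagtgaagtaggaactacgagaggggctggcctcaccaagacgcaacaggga
The Cd53 window holds GAGGAA 39 bases before the start and the Cd47 window holds CCGGAA 203 bases before it. No match lay in the Cd48 and Cd34 windows. Over 48 CD antigen genes with a window, 20 held GAGGAA, 8 held CCGGAA and 4 held GATAAG. Among 32851 windows of the same length, 23.3% held GAGGAA, 12% CCGGAA and 6.55% GATAAG. These windows are counted per annotated start, so a gene can enter more than once, while each CD antigen gene is counted by its first start. Of 11 genes with a spot called above the array median (levels below), 9 had a window, of which 5 held GAGGAA, 1 CCGGAA and 1 GATAAG. Of 11 genes with a spot called below it, 6 had a window, of which 2 held GAGGAA and none held CCGGAA or GATAAG. Cd8a and Cd55b are counted here by the 1 of their 2 tested spots that was called. These are counts of letters and were not tested.

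Among the CD antigen spots with a value on every array, Cd53 and Cd48 lay highest and Cd34 lowest. Of the 75 spots, 53 (49 genes) had at least 2 values in each group and were tested. In limma's fit with Benjamini-Hochberg adjustment over 16061 spots, 12 were called above the array median, where 17.8% of all spots were. Another 11 were called below it, where 25% of all spots were. Counts of spots called above or below in the groups that follow are of this kind and read against these shares. The remaining 30 did not pass. Called in either direction were 43.4% of the tested members, beside 42.7% of all spots. With the letter as a block, 14 members were called above and 13 below, where 45.7% of all spots were called. For a level, the block takes the spread between letters out of the error, so a call under it does not cover that spread. Cd63, with letter means from 0.07 to 1.47, had adjusted p = 0.0438 in limma without the block and 0.00513 with it. The median level of the tested members was -0.09, beside -0.12 for all tested spots. Of 34 members with a value on all 12 arrays, 8 were above the median on every array, beside 9.63% of such spots, and 4 were below it on every array, beside 11%. The share above on every array was 23.5% of these members and the share below was 11.8%. Unless another setting is named, adjusted p-values of levels below are from the fit without a block, which treats the 12 arrays as independent.

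**Figure D1:**
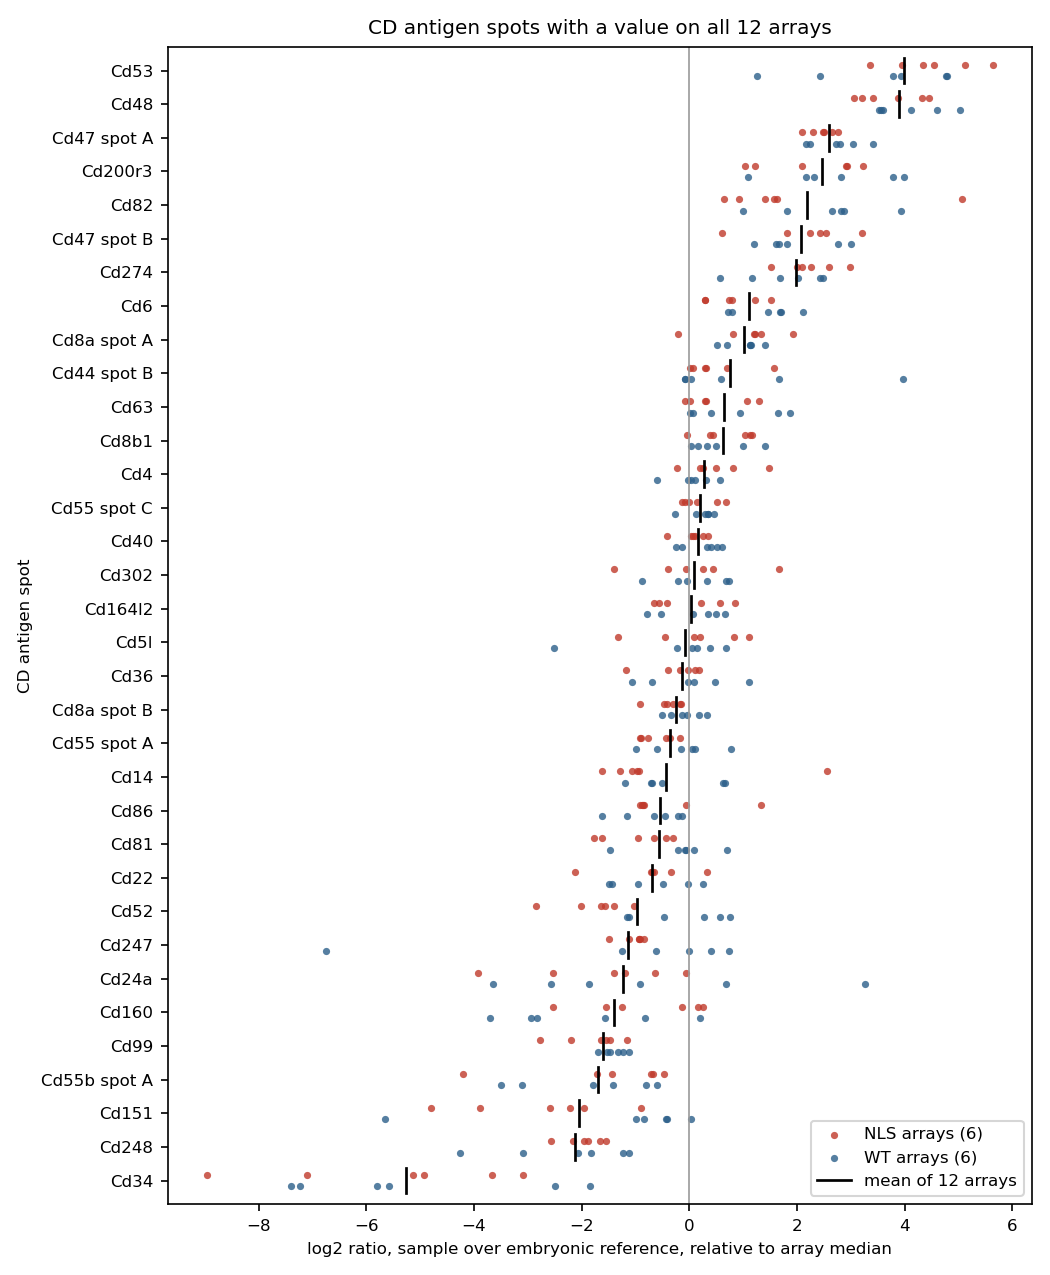
Log2 ratio of the sample over the embryonic reference relative to the array median (x axis) for the 34 CD antigen spots with a value on all 12 arrays (y axis). Points are single arrays, NLS in red above WT in blue, and black bars are means of 12 arrays. Cd53 and Cd48 sit highest and Cd34 lowest, and in every spot the NLS and WT arrays overlap.

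Among the tetraspanins, 3 of 6 tested spots were called above the array median and 1 below, with a median level of 0.68. Cd53, a tetraspanin of leukocytes, gave log2 ratios of 3.36, 3.95 and 5.64 in NLS 1GH arrays, 5.11, 4.34 and 4.54 in NLS 0GH arrays, 1.26, 3.79 and 3.94 in WT 1GH arrays and 4.79, 2.42 and 4.77 in WT 0GH arrays (letters b, c and d in this order, here and below). All 12 were above the array median, and the lowest was that of WT 1GH b. The level was 3.99 (SE 0.33, adjusted p = 2.9e-05). Cd82, which restrains cell motility and signalling from partner proteins, was at 5.07, 1.62 and 0.65 in NLS 1GH arrays, 1.40, 0.91 and 1.57 in NLS 0GH arrays, 3.93, 0.99 and 2.65 in WT 1GH arrays and 2.88, 2.81 and 1.81 in WT 0GH arrays. Every array was above the median, with NLS 1GH b and WT 1GH b highest, and the level was 2.19 (SE 0.38, adjusted p = 0.00177). Cd63, found in lysosomes and exosomes, had a level of 0.65 (SE 0.23, adjusted p = 0.0438). Letter c was highest, with letter means of 0.07 for b, 1.47 for c and 0.41 for d. This call was kept in only 2 of 12 fits without 1 array, where adjusted p reached 0.0902.

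Cd151, a partner of laminin-binding integrins, lay below the median on 11 of 12 arrays. Its log2 ratios were -4.81, -0.90 and -2.59 in NLS 1GH arrays, -3.90, -1.96 and -2.21 in NLS 0GH arrays, -0.99, -0.42 and 0.03 in WT 1GH arrays and -0.44, -5.65 and -0.84 in WT 0GH arrays. The WT 0GH c array was lowest and the WT 1GH d array just above 0, and the level was -2.06 (SE 0.49, adjusted p = 0.00803). Cd81, which joins the B cell coreceptor, had a level of -0.56 (SE 0.21, adjusted p = 0.0538) and was below 0 on 10 of 12 arrays. With the letter as a block its adjusted p was 0.0121, and without WT 0GH d it was 0.0485. Cd37, a leukocyte tetraspanin, had 0.70 (SE 0.49, adjusted p = 0.283) on 10 arrays. Cd9, the last tetraspanin of this name, had no value on any array. Of 10 tested spots for tetraspanins not named Cd, 2 were called above and 2 below the median. Tspan2 was highest of these at 2.14 (SE 0.55) and Tspan13 was at -1.64 (SE 0.46).

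Cd48 stood out among adhesion molecules of the SLAM family and their relatives. This GPI-anchored ligand of Cd244 and, in mice, of Cd2 was at 3.42, 3.05 and 4.45 in NLS 1GH arrays, 3.20, 3.88 and 4.33 in NLS 0GH arrays, 4.60, 3.56 and 4.11 in WT 1GH arrays and 5.03, 3.60 and 3.52 in WT 0GH arrays. The 12 values lay within 3.05 and 5.03, with NLS and WT arrays interleaved, and the level was 3.90 (SE 0.21, adjusted p = 2.23e-06). Of its receptors, Cd244a had no value on any array, and Cd2, an adhesion receptor of T and natural killer cells, was low at 0.14 and -1.34 in NLS 1GH arrays b and c, -4.60, -4.36 and -1.68 in NLS 0GH arrays, -1.22, 0.88 and 0.63 in WT 1GH arrays and -0.44, -0.31 and -2.82 in WT 0GH arrays. Both letters b and c of NLS 0GH were below -4. The level of Cd2 was -1.31 (SE 0.39, adjusted p = 0.0246), and its adjusted p was 0.0512 with the letter as a block, 0.0516 without NLS 0GH b and 0.0511 without NLS 0GH c. Cd84, a SLAM receptor that binds itself, was at -0.75 and 1.75 in NLS 1GH arrays c and d, 1.27 and 0.17 in NLS 0GH arrays c and d, 6.93, 2.28 and 1.98 in WT 1GH arrays and 6.98, -0.27 and 2.68 in WT 0GH arrays. It was near 7 in both WT arrays of letter b and had no value in either NLS array of that letter. Its level of 2.02 (SE 0.79, adjusted p = 0.0705) did not pass, while with the letter as a block it was 2.90 (SE 0.40, adjusted p = 0.00253) and without WT 0GH c 2.46 (adjusted p = 0.0289).

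Cd47 had 2 spots, and both lay above the median on all arrays. Spot A gave 2.66, 2.30 and 2.48 in NLS 1GH arrays, 2.09, 2.50 and 2.76 in NLS 0GH arrays, 2.17, 3.04 and 3.42 in WT 1GH arrays and 2.23, 2.80 and 2.73 in WT 0GH arrays. Spot B gave 2.54, 2.42 and 1.81 in NLS 1GH arrays, 3.21, 0.61 and 2.25 in NLS 0GH arrays, 2.77, 3.0 and 1.60 in WT 1GH arrays and 1.82, 1.66 and 1.20 in WT 0GH arrays. The levels were 2.60 (SE 0.16, adjusted p = 4.4e-06) and 2.07 (SE 0.24, adjusted p = 0.000196), and spot A was the higher one on 9 of 12 arrays, by a mean of 0.53 (SD 0.94). The product is the ligand of the phagocyte receptor Sirpa. Over the arrays, the 2 spots of Cd47 correlated at -0.25. The 2 spots of Cd8a correlated at -0.56 and those of Cd55b at -0.29 (10 arrays), while spots A and C of Cd55 correlated at 0.31.

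Of 13 tested spots for adhesion, mucin-like and stem cell antigens, Cd48 and both Cd47 spots were called above the median and 4 spots below, with a median level of -0.94. Cd34 was the lowest tested CD antigen, at -5.14, -4.93 and -7.11 in NLS 1GH arrays, -3.09, -3.68 and -8.96 in NLS 0GH arrays, -1.84, -7.40 and -2.50 in WT 1GH arrays and -7.23, -5.59 and -5.81 in WT 0GH arrays. No array was above -1.84. The level was -5.27 (SE 0.62, adjusted p = 0.000217), and 1 of its values, before centring, exceeded 8.36 in size. That bound is the largest log2 ratio of a 16-bit scan over a floor of 200. The 16 bits were assumed, and the floor is stated for the control channel only, so the size of such values is uncertain. Cd248 (endosialin), a stromal and pericyte antigen, was at -1.95, -1.67 and -1.88 in NLS 1GH arrays, -1.55, -2.58 and -2.15 in NLS 0GH arrays, -1.12, -2.06 and -3.09 in WT 1GH arrays and -1.84, -1.24 and -4.27 in WT 0GH arrays. It was below the median on all arrays, with a level of -2.12 (SE 0.28, adjusted p = 0.000409). Cd99, a small adhesion molecule used in leukocyte passage through vessels, gave -1.15, -2.21 and -1.64 in NLS 1GH arrays, -1.55, -2.77 and -1.47 in NLS 0GH arrays, -1.48, -1.24 and -1.12 in WT 1GH arrays and -1.69, -1.52 and -1.32 in WT 0GH arrays. All values lay between -2.77 and -1.12, and the level was -1.60 (SE 0.17, adjusted p = 0.000125).

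Cd52, a short GPI-anchored peptide of lymphocytes, was at -2.85, -1.41 and -1.64 in NLS 1GH arrays, -1.03, -1.56 and -2.02 in NLS 0GH arrays, -1.12, 0.76 and -0.47 in WT 1GH arrays and 0.27, 0.57 and -1.16 in WT 0GH arrays. All 6 NLS arrays were below -1, while 3 WT arrays were above 0. The level was -0.97 (SE 0.24, adjusted p = 0.00944), with adjusted p = 0.151 when the arrays were not centred. Cd24a, a GPI-anchored antigen of immature B cells and other precursors, gave -2.53, -1.41 and -0.64 in NLS 1GH arrays, -0.05, -3.93 and -1.20 in NLS 0GH arrays, 0.68, -2.56 and -3.64 in WT 1GH arrays and 3.27, -1.86 and -0.92 in WT 0GH arrays. The 2 values above 0 were the WT arrays of letter b. Its level was -1.23 (SE 0.55, adjusted p = 0.0958), and it passed without WT 1GH b (-1.55, adjusted p = 0.0418) and without WT 0GH b (-1.62, adjusted p = 0.024). Cd44, the hyaluronan receptor, was measured by spot B at 0.01, 0.30 and 0.07 in NLS 1GH arrays, 0.30, 1.57 and 0.69 in NLS 0GH arrays, 0.04, 0.59 and -0.07 in WT 1GH arrays and 3.98, 1.66 and -0.08 in WT 0GH arrays. One array, WT 0GH b, stood highest, and the level was 0.75 (SE 0.30, adjusted p = 0.0695). It passed without WT 0GH d (1.0, adjusted p = 0.0105) and also without centring (1.17, adjusted p = 0.0185) or with the centre over all spots (0.99, adjusted p = 0.0241). Spot A of Cd44 had values on NLS 1GH d (6.42) and NLS 0GH d (-2.75) and on no other array.

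The sialomucin Cd164 gave 1.81, 0.92 and -0.69 in NLS 1GH arrays, -2.26, -3.85 and 0.35 in NLS 0GH arrays, -2.08 and -1.45 in WT 1GH arrays b and c and -0.43 and -1.10 in WT 0GH arrays c and d. The values spread over both sides of the median, and the level was -0.94 (SE 0.43, adjusted p = 0.113), or -1.22 (adjusted p = 0.0232) without NLS 0GH d. Cd164l2, a relative of Cd164, had a level of 0.02 (SE 0.21, adjusted p = 0.94). The transcobalamin receptor Cd320 was at -2.34 and -1.14 in NLS 1GH arrays c and d, 6.49, 0.03 and 0.08 in NLS 0GH arrays, -3.79 and -2.35 in WT 1GH arrays b and c and -2.76 and -7.23 in WT 0GH arrays c and d. The NLS 0GH arrays ran between 0.03 and 6.49 and the 4 WT values between -7.23 and -2.35. Its level was -1.90 (SE 0.82, adjusted p = 0.103), or -2.43 (adjusted p = 0.0137) without NLS 0GH b.

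Of 13 tested spots for T and natural killer cell antigens, 3 were called above the median and 3 below, with a median level of -0.25. Cd3d, a signalling chain of the T cell receptor, was at -4.44, -1.72 and 0.39 in NLS 1GH arrays, -5.02 and -8.82 in NLS 0GH arrays c and d, -0.74, -3.26 and -1.07 in WT 1GH arrays and -1.72, -3.23 and -2.80 in WT 0GH arrays. The NLS 0GH d and c arrays were the lowest and NLS 1GH d was the 1 value above 0. The level was -3.28 (SE 0.52, adjusted p = 0.00139). Cd247, the zeta chain, gave -0.84, -0.94 and -1.50 in NLS 1GH arrays, -0.92, -1.11 and -0.94 in NLS 0GH arrays, -1.25, -6.76 and 0.40 in WT 1GH arrays and -0.01, 0.74 and -0.62 in WT 0GH arrays. The 6 NLS arrays lay between -1.50 and -0.84, inside the WT range, and WT 1GH c stood far below. Its level was -1.15 (SE 0.51, adjusted p = 0.0939); it passed without WT 1GH c (-0.61, adjusted p = 0.0442) and without WT 1GH d (-1.51, adjusted p = 0.0232). Cd3e had a level of -0.39 (SE 0.65, adjusted p = 0.654), and Cd3g had values on 8 arrays with a mean of -4.51 (SD 4.35).

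The coreceptor Cd8a had 2 spots that disagreed. Spot A was at 1.92, 0.81 and -0.21 in NLS 1GH arrays, 1.33, 1.21 and 1.22 in NLS 0GH arrays, 1.15, 0.51 and 1.12 in WT 1GH arrays and 1.41, 0.69 and 1.12 in WT 0GH arrays. It was above the median on 11 of 12 arrays, with a level of 1.02 (SE 0.19, adjusted p = 0.00256). Spot B had -0.25 (SE 0.14, adjusted p = 0.174) and was below the median on 10 of 12 arrays, and spot A exceeded it on 11 of 12 arrays by a mean of 1.27 (SD 0.77). Cd8b1, the beta chain, had a level of 0.63 (SE 0.18, adjusted p = 0.0207). Cd4 had 0.28 (SE 0.19, adjusted p = 0.247). Cd6, a scavenger-type coreceptor of T cells, gave 1.22, 0.79 and 0.74 in NLS 1GH arrays, 1.52, 0.28 and 0.29 in NLS 0GH arrays, 0.72, 1.71 and 1.46 in WT 1GH arrays and 1.69, 0.79 and 2.10 in WT 0GH arrays. No array was below the median, and the level was 1.11 (SE 0.19, adjusted p = 0.0015).

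Cd160, a GPI-anchored receptor of natural killer and T cells, was at -1.25, -2.53 and -0.14 in NLS 1GH arrays, 0.16, 0.25 and -1.55 in NLS 0GH arrays, -1.56, -3.71 and -0.82 in WT 1GH arrays and -2.83, -2.95 and 0.20 in WT 0GH arrays. The 3 values above 0 were NLS 0GH b, NLS 0GH c and WT 0GH d. The level was -1.39 (SE 0.38, adjusted p = 0.0151), with adjusted p = 0.156 when the arrays were not centred. Cd28, the costimulatory receptor, was at 3.34 and -0.59 in NLS 1GH arrays b and c, 1.66 and -0.14 in NLS 0GH arrays b and c, 0.17, -4.57 and -0.98 in WT 1GH arrays and 2.28, -0.77 and 0.86 in WT 0GH arrays. Its level was 0.28 (SE 0.60, adjusted p = 0.731), and WT 1GH c was lowest. Cd7 and Cd96 had levels of -0.37 (SE 0.23) and 0.24 (SE 0.43) and did not pass.

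Among 4 tested B cell antigens, Cd72 was called above and Cd22 below the median. Cd72, an inhibitory lectin of B cells, was at -0.21, 1.53 and 0.07 in NLS 1GH arrays, -0.06 and -0.23 in NLS 0GH arrays c and d, 2.92, 0.97 and 1.21 in WT 1GH arrays and 3.32 and 1.85 in WT 0GH arrays b and c. The 5 WT values were all at or above 0.97, and of the NLS values only NLS 1GH c was in that range. The level was 1.15 (SE 0.30, adjusted p = 0.0159). Cd22, an inhibitory receptor that binds sialic acid, was at 0.32, -2.13 and -0.72 in NLS 1GH arrays, -0.35, -0.66 and -0.70 in NLS 0GH arrays, 0.25, -1.49 and -0.03 in WT 1GH arrays and -0.96, -0.49 and -1.44 in WT 0GH arrays. It lay below the median on 10 of 12 arrays, with a level of -0.70 (SE 0.24, adjusted p = 0.0397). That call was kept in 3 of 12 fits without 1 array, where adjusted p reached 0.0853.

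Receptors and ligands that set the threshold of immune activation were spread over both sides. Of 6 tested spots for antigen presentation and costimulation, 2 were called above the median and 1 below. Cd274 (PD-L1), the inhibitory ligand of PD-1, was at 2.59, 1.51 and 2.09 in NLS 1GH arrays, 2.25, 2.0 and 2.99 in NLS 0GH arrays, 2.02, 1.69 and 2.49 in WT 1GH arrays and 0.58, 1.16 and 2.42 in WT 0GH arrays. All arrays were above 0.5, the lowest being WT 0GH b, and the level was 1.98 (SE 0.20, adjusted p = 0.0001). Cd200r3, an activating relative of the Cd200 receptor known from mouse basophils and mast cells, was at 2.91, 1.22 and 2.93 in NLS 1GH arrays, 3.22, 1.04 and 2.09 in NLS 0GH arrays, 3.98, 1.09 and 3.78 in WT 1GH arrays and 2.82, 2.31 and 2.17 in WT 0GH arrays. Letter c gave the lowest arrays in 3 of the 4 groups and letter means were 3.24 for b, 1.41 for c and 2.74 for d. The level was 2.46 (SE 0.31, adjusted p = 0.000314).

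The other members of the Cd200 system were less well measured. Cd200, the ligand, had a mean of -4.78 (SD 4.50) on 7 arrays, with 2 values beyond that scanner bound. The inhibitory receptor Cd200r1 had 1 value, -1.82. Cd83, a maturation antigen of dendritic and B cells, gave -1.74, -3.38 and -0.49 in NLS 1GH arrays, -10.55 and -4.28 in NLS 0GH arrays c and d, 1.21, -0.96 and -4.51 in WT 1GH arrays and 2.88, -1.34 and -1.83 in WT 0GH arrays. The lowest value, NLS 0GH c, lay beyond the same bound. Its level was -2.70 (SE 0.76, adjusted p = 0.0196), and letter b lay on the other side, with letter means of 0.78 for b, -4.06 for c and -2.78 for d.

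Cd86, a ligand of Cd28, was at -0.91, -0.84 and -0.86 in NLS 1GH arrays, 1.32, -0.06 and -0.88 in NLS 0GH arrays, -0.13, -0.21 and -1.17 in WT 1GH arrays and -0.45, -0.66 and -1.63 in WT 0GH arrays. All but NLS 0GH b were below 0, and the level was -0.54 (SE 0.22, adjusted p = 0.0678); with the letter as a block, adjusted p was 0.0317, and without NLS 0GH b the level was -0.68 (adjusted p = 0.0171). Cd80, the other ligand, had a mean of -1.60 (SD 1.74) on 8 arrays. Cd74, the invariant chain that escorts MHC class II, was at -2.61, -2.83 and 1.84 in NLS 1GH arrays, 2.20, -0.52 and 1.65 in NLS 0GH arrays, -1.76 and -4.77 in WT 1GH arrays b and c and -1.43, -1.35 and -2.98 in WT 0GH arrays. Its 3 values above 0 were all NLS and the 5 WT values were all below -1. The level was -1.32 (SE 0.52, adjusted p = 0.0684), or -1.70 (adjusted p = 0.0116) without NLS 1GH d. Cd40, a receptor for T cell help, lay between -0.41 and 0.60 on all arrays, with a level of 0.16 (SE 0.14, adjusted p = 0.405). Cd70 and its receptor Cd27 had means of -3.82 (SD 1.18) on 4 arrays and -3.62 (SD 2.08) on 9 arrays. Lipid-presenting Cd1d1 had -1.60 (SD 2.04) on 9 arrays and Cd1d2 -6.37 (SD 1.56) on 7 arrays.

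None of 6 tested myeloid and scavenger antigens passed, among 12 spots of this kind. The lipopolysaccharide coreceptor Cd14 had -0.43 (SE 0.33, adjusted p = 0.324), the scavenger receptor Cd36 -0.13 (SE 0.21, adjusted p = 0.632) and the lectin Cd302 0.09 (SE 0.25, adjusted p = 0.788). Cd163, the receptor for haemoglobin bound to haptoglobin, had 0.91 (SE 0.36, adjusted p = 0.0692) and Cd68, a lysosomal antigen of macrophages, -1.29 (SE 0.51, adjusted p = 0.0684). Letter means for b, c and d were 1.24, -0.12 and 1.45 for Cd163 and -3.60, -0.42 and -0.61 for Cd68. With the letter as a block, which takes that spread out of the error, Cd163 passed at 1.0 (adjusted p = 0.0219) and Cd68 at -1.55 (adjusted p = 0.00367). Single arrays also decided whether 3 of these passed: without NLS 0GH b Cd14 was at -0.72 (adjusted p = 0.0286), without NLS 0GH c Cd163 was at 1.09 (adjusted p = 0.0404), and without WT 1GH c Cd68 was at -1.50 (adjusted p = 0.0485). Cd33, a receptor for sialic acid, had 0.39 (SE 0.48, adjusted p = 0.541). Of the Cd209 lectins, Cd209a and Cd209c had no value and Cd209b, Cd209d and Cd209e had 5, 2 and 1 values, all below the median. Cd177 had none. Cd300c2 and the secreted Cd5l had levels of -0.30 (SE 0.56) and -0.09 (SE 0.30).

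Of 5 tested spots for complement regulators, 1 was called below the median and none above. Cd55, which speeds the decay of convertases, had 3 spots. Spots C and A were measured on all arrays at 0.20 (SE 0.15, adjusted p = 0.288) and -0.36 (SE 0.18, adjusted p = 0.129), and spot B had 1 value, 0.84. The related Cd55b had 2 spots that disagreed. Spot A was at -4.21, -0.68 and -0.48 in NLS 1GH arrays, -1.72, -0.71 and -1.45 in NLS 0GH arrays, -3.10, -0.61 and -1.80 in WT 1GH arrays and -3.49, -1.41 and -0.80 in WT 0GH arrays. It was below the median on every array, with a level of -1.71 (SE 0.39, adjusted p = 0.00649). Spot B was at 0.13, 1.58 and 0.09 in NLS 1GH arrays, -2.25 and -2.78 in NLS 0GH arrays c and d, 7.34, 2.80 and 1.96 in WT 1GH arrays and 0.51 and 1.94 in WT 0GH arrays c and d. It was above the median on 8 of 10 arrays and exceeded spot A by a mean of 2.66 (SD 3.40), so its level of 0.84 (SE 0.52, adjusted p = 0.232) did not place the gene. With the spots of the gene averaged, the level was -0.60 (adjusted p = 0.214). Cd59a, which blocks the membrane attack complex, had 0.09 (SE 0.56, adjusted p = 0.909).

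Leukocyte surface genes outside the rule give the setting of these levels. Of 34 tested spots, 13 were called above the median and 4 below (beside 17.8% and 25% of all spots), with a median level of 0.44. Ptprc, the leukocyte common antigen, was at 3.95 (SE 0.29) and Csf2rb2, a cytokine receptor chain, at 3.44 (SE 0.16). Of the genes set aside by the rule, Cd79b was at 3.50 (SE 0.34), Cd79a at 2.66 (SE 0.37) and Cd180 at 0.60 (SE 0.30, not called). Kit was at -0.89 (SE 0.21). Of marker lists for other cell types, 6 of 10 fibroblast, 3 of 4 epithelial and 4 of 6 endothelial spots were called below the median, and 0, 0 and 1 above. The fibroblast and epithelial lists share genes with the set from embryo tissues by which the sign was chosen. Of 17 B cell marker spots, which stand for only 7 genes, 1 was called above and 5 below. Of 6 myeloid spots 2 and 3 were called, of 6 erythroid and megakaryocyte spots 2 and 2, and of 5 mast cell and basophil spots 0 and 3. The 1 tested T cell marker was called below. The list means of single arrays ran from -2.02 to 0.26 in NLS and from -1.41 to 0.99 in WT arrays for the B cell markers, and from -1.26 to -0.22 in NLS and from -2.42 to 0.38 in WT arrays for the myeloid markers. In bulk RNA, fewer cells of a type and less RNA per cell cannot be told apart.

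The number of arrays with a value is a measure of its own. Of the 75 spots, 34 had a value on all 12 arrays (45.3%, beside 50.8% of all target spots), 36 on some and 5 on none (6.67%, beside 2.22%). The 5 were Cd9, Cd177, Cd209a, Cd209c and Cd244a. Of the 22 spots not tested, 17 had at least 1 value, and the mean was below the array median for 15 of them. The lowest of these was Cd209e, with 1 value of -6.99. Cd3g, Cd93, Cd70, Cd69 and Cd46 all had means below -3. Cd5, a T cell coreceptor, had a mean of -3.57 (SD 2.68) on 4 arrays. NLS arrays gave 341 of 450 possible values (75.8%), against 346 of 450 (76.9%) in WT arrays. More NLS than WT arrays had a value for 15 spots, fewer for 15 and as many for 45. The widest gap was that of Cd1d2, with a value on 2 NLS and 5 WT arrays, and no gap exceeded 3 arrays. Letter b arrays had the fewest values, with 48 to 55 spots, against 56 to 64 for letters c and d. As a background of the measurement, 7.85% to 19.5% of 573 control spots with QMB or SCUPB identifiers had a value per array.

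**Figure D2:**
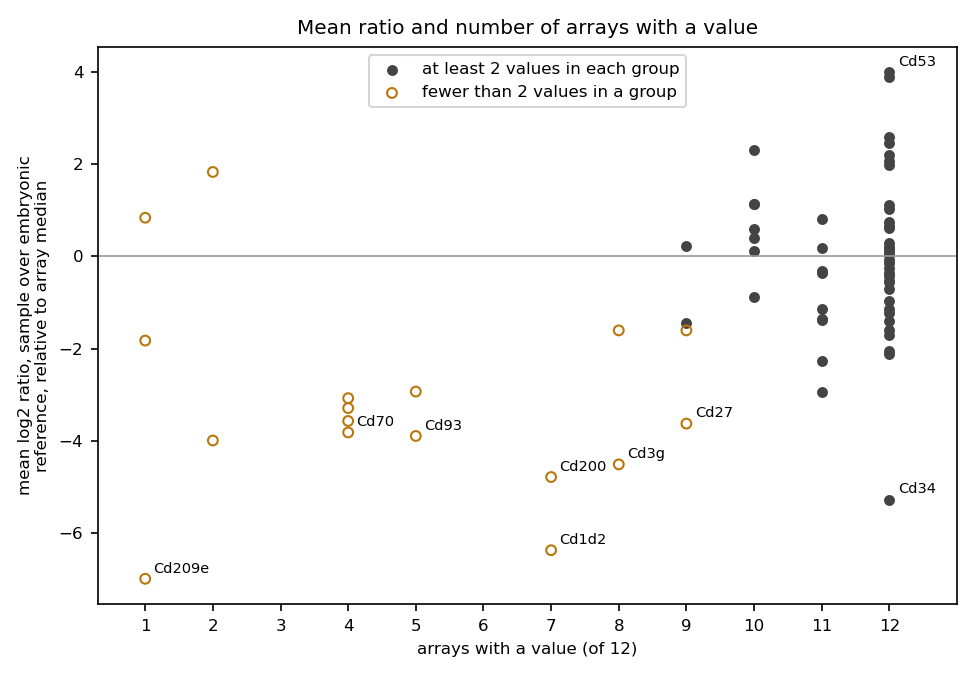
Mean log2 ratio relative to the array median (y axis) against the number of arrays with a value (x axis) for the 70 CD antigen spots with at least 1 value. Filled points had at least 2 values in each group and were tested, and open points did not. Of the 17 open points, 15 lie below 0.

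The comparison of NLS with WT asks how transcripts differ between the receptor forms. Averaged over 1GH and 0GH, no CD antigen passed limma's test, and 1 of 16061 spots did (0.00623%), which was Ms4a6d and no member. The lowest adjusted p of a member was 0.834. At an unadjusted p under 0.05, 6 of 53 members were found, a share of 11.3% beside 5.59% of all spots. The median difference of the members was -0.23 and that of all spots -0.05, with 19 members above 0 and 34 below. No member with 12 values had all 6 NLS arrays above all 6 WT arrays, where 0.578% of such spots did, or all below, where 0.151% did. The SE of a difference had a median of 0.62 over the members. The p-values and differences here and below are from the fit without a block. With the letter as a block, the lowest adjusted p of a member in limma was 0.523, for Cd52, and no spot passed. Unadjusted p then fell under 0.05 for Cd28, Cd37, Cd81 and Cd163 as well, and was 0.0543 for Cd74. Of all 16061 spots, 1285 were then under 0.05. Where NLS values of letter b were missing, some estimates moved, from -2.82 to -1.06 for Cd84 and from 0.01 to 1.01 for Cd33. Others hardly moved: that of Cd55b spot B stayed at -3.59 and that of Cd3d went from -2.28 to -2.34.

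**Figure D3:**
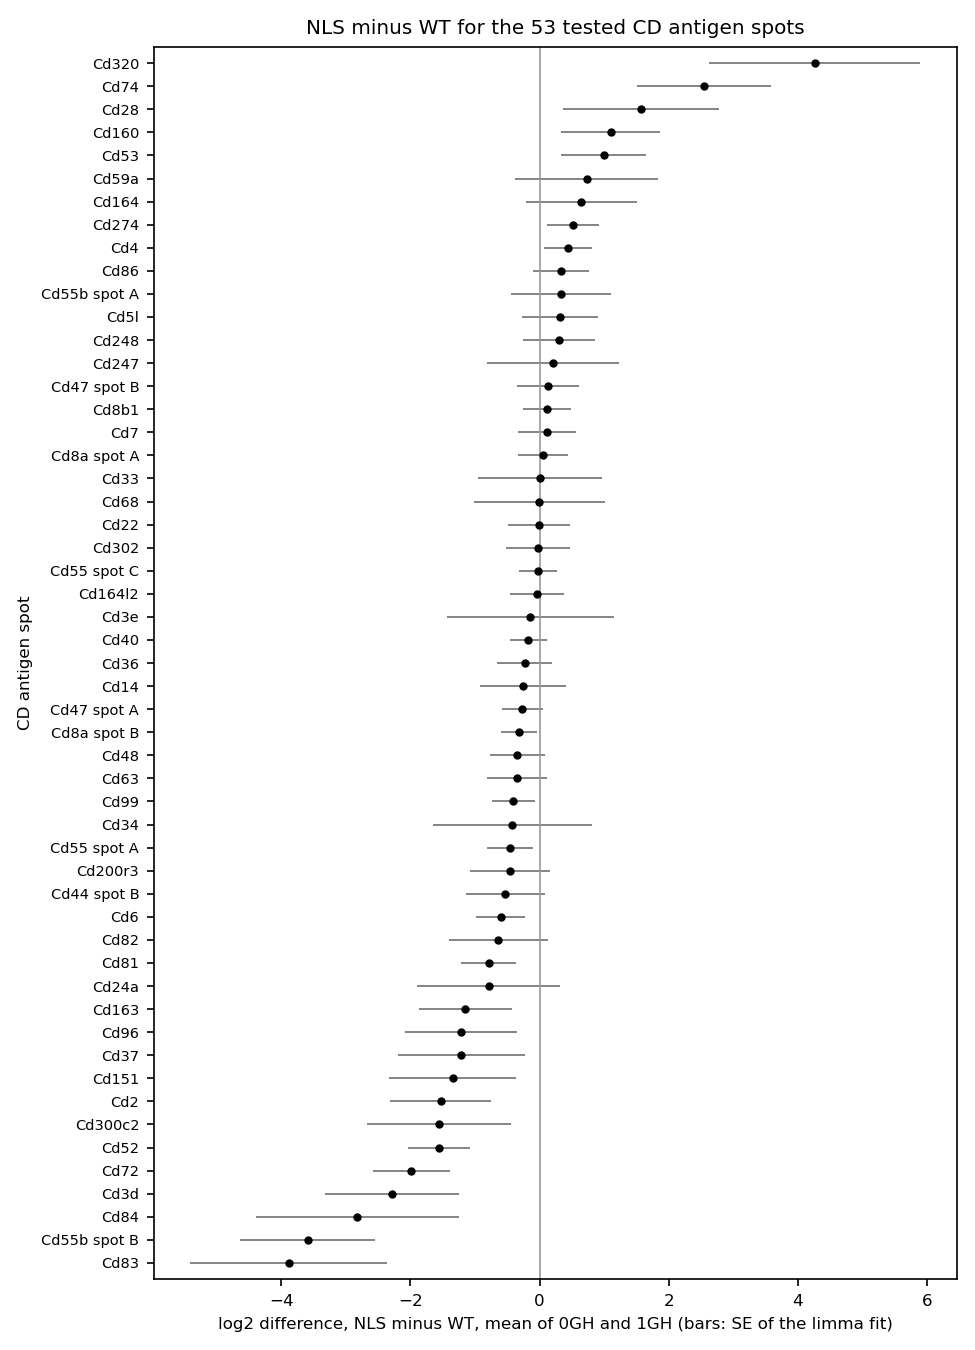
Log2 difference, NLS minus WT, averaged over 1GH and 0GH (x axis), with the SE of the limma fit as bars, for the 53 tested CD antigen spots (y axis). Values run from -3.88 for Cd83 to 4.26 for Cd320, and none passed the adjusted threshold.

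Cd52 had the smallest p of the members. It averaged -1.75 ± 0.63 in NLS arrays and -0.19 ± 0.85 in WT arrays (SD, n = 6 each), a difference of -1.56 (SE 0.48, adjusted p = 0.834). NLS was below WT in all 6 pairs of one letter and GH number, and the difference was -1.51 for letter b, -2.15 for c and -1.01 for d. The groups still overlapped, at NLS 0GH b against WT 1GH b and WT 0GH d. Of 34 members with 12 values, 2 were lower in NLS in all 6 pairs, beside 2.53% of such spots, and none was higher in all 6, beside 3.5%. The second was Cd81, singled out after its values were seen. It was at -1.63, -0.43 and -0.31 in NLS 1GH arrays, -1.77, -0.66 and -0.95 in NLS 0GH arrays, -0.21, -0.06 and 0.70 in WT 1GH arrays and -1.47, -0.08 and 0.09 in WT 0GH arrays. It averaged -0.96 ± 0.62 in NLS arrays and -0.17 ± 0.71 in WT arrays (SD, n = 6 each), a difference of -0.79 (SE 0.42, adjusted p = 0.895). It was -0.86 for letter b, -0.47 for c and -1.03 for d.

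**Figure D4:**
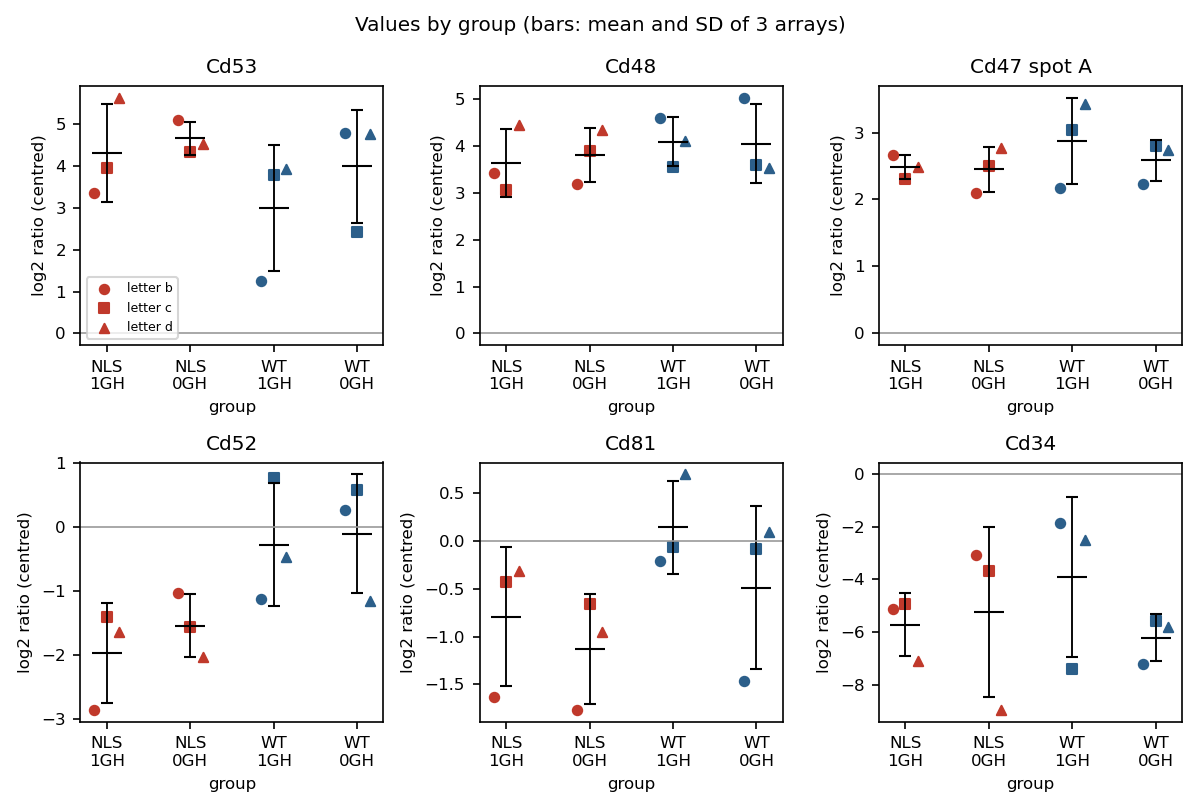
Log2 ratio relative to the array median (y axis) of 6 CD antigen spots in the 4 groups (x axis), with points for single arrays shaped by letter, and bars for the mean and SD of 3 arrays. Cd53, Cd48 and Cd47 spot A lie above 0 and Cd34 below 0 in all groups, and Cd52 and Cd81 have lower means in NLS than in WT groups.

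The other named differences rest on fewer values. Spot B of Cd55b, whose values are given above, averaged -0.65 ± 1.82 in NLS arrays and 2.91 ± 2.61 in WT arrays (SD, n = 5 each), a difference of -3.59 (SE 1.05, adjusted p = 0.834). NLS was below WT in 5 of 5 pairs. Spot A of the same gene differed by 0.33 (SE 0.78), on the other side of 0. Cd72 averaged 0.22 ± 0.75 in NLS arrays and 2.05 ± 1.04 in WT arrays (SD, n = 5 each), a difference of -1.99 (SE 0.60, adjusted p = 0.843) with NLS lower in 3 of 4 pairs. NLS 0GH b and WT 0GH d had no value for Cd72, and letter c, the only letter valued in all 4 groups, gave -0.67. Cd83 differed by -3.88 (SE 1.52, adjusted p = 0.858), with letter c at -5.82 and letter d at 0.78. Cd3d differed by -2.28 (SE 1.03, adjusted p = 0.883), lower in 3 of 5 pairs.

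On the other side, Cd320 differed by 4.26 (SE 1.64, adjusted p = 0.882), with NLS higher in 3 of 3 pairs. The letter c pair at 1GH differed by only 0.006, and letter c, the only letter with both pairs, gave 1.40. The highest NLS value, 6.49 in NLS 0GH b, had no WT value of that letter and GH number beside it. Cd74 averaged -0.05 ± 2.28 in NLS arrays (SD, n = 6) and -2.46 ± 1.45 in WT arrays (SD, n = 5), a difference of 2.55 (SE 1.04, adjusted p = 0.882), higher in 4 of 5 pairs. Cd28, Cd160 and Cd53 differed by 1.57 (SE 1.21), 1.10 (SE 0.76) and 0.99 (SE 0.66). With 1 array left out these ran from 0.88 to 2.06, from 0.69 to 1.62 and from 0.56 to 1.23. For Cd28, with 2 values in each NLS group, only WT values could be left out. Cd53 was higher in NLS in 5 of 6 pairs and Cd160 in 5 of 6. Of the members with the highest levels, Cd48 differed by -0.35 (SE 0.42) and spots A and B of Cd47 by -0.27 (SE 0.32) and 0.13 (SE 0.48). For Cd34 the difference was -0.42 (SE 1.23).

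At 0GH no member and no spot passed (0%), and 4 of 53 members had an unadjusted p under 0.05 (7.55%, beside 5.2% of all spots). The differences with the smallest p were 7.19 (SE 2.21) for Cd320, 3.03 (SE 1.39) for Cd74, 1.03 (SE 0.57) for Cd274, 1.04 (SE 0.61) for Cd86 and 1.48 (SE 1.08) for Cd160. Below 0 they were -7.32 (SE 2.27) for Cd83, -2.73 (SE 0.92) for Cd72, -4.33 (SE 1.54) for Cd3d, -2.36 (SE 1.04) for Cd2 and -3.74 (SE 1.62) for Cd55b spot B. Adjusted p was at least 0.932 for each of these in limma. With 1 array left out, Cd274 ran from 0.62 to 1.55, Cd86 from 0.45 to 1.54 and Cd160 from 0.95 to 2.51. The other 7 differences, in the fits that kept their spot, moved by less than 1.5 times. Cd72 and Cd55b spot B had 2 values in each 0GH group, so leaving out any of those arrays removed the spot. For these 2 spots, the weight of a single 0GH value was therefore not tested. Cd320 rests on 3 NLS and 2 WT values, and Cd83 and Cd3d each on 2 NLS and 3 WT values. For these 3, only values of the larger group could be left out.

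At 1GH no member and no spot passed (0%), and 2 of 53 members had an unadjusted p under 0.05 (3.77%, beside 3.56%), namely Cd52 and Cd55b spot B. The differences above 0 with the smallest p were 2.45 (SE 1.22) for Cd164, 3.17 (SE 1.71) for Cd28, 1.32 (SE 0.93) for Cd53, 2.06 (SE 1.55) for Cd74 and 1.05 (SE 0.84) for Cd5l. The values of Cd5l were 0.20, 0.08 and 0.82 in NLS 1GH arrays, -1.33, -0.46 and 1.11 in NLS 0GH arrays, 0.69, -0.22 and -2.51 in WT 1GH arrays and 0.15, 0.05 and 0.39 in WT 0GH arrays. Its NLS and WT arrays overlapped, with WT 1GH d lowest. Below 0 the differences were -3.44 (SE 1.33) for Cd55b spot B, -1.69 (SE 0.68) for Cd52, -2.31 (SE 1.39) for Cd151, -1.24 (SE 0.75) for Cd72 and -0.94 (SE 0.60) for Cd81. Most of these moved by over 1.5 times with 1 array left out. Cd28 had 2 values in NLS 1GH arrays, and Cd74 and Cd164 had 2 each in WT 1GH arrays. None of those values could be left out. The ranges were 1.78 to 4.14 for Cd28, 0.45 to 1.79 for Cd53, 0.54 to 2.87 for Cd74 and 0.14 to 1.73 for Cd5l, and below 0 they were -4.47 to -1.79 for Cd55b spot B, -3.24 to -1.30 for Cd151, -1.78 to -0.63 for Cd72 and -1.18 to -0.53 for Cd81.

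Across GH numbers no member passed. In NLS, 1GH minus 0GH called no member and no spot (0%), and 4 of 53 had an unadjusted p under 0.05 (7.55%, beside 3.51%). These 4 were all above 0, at 4.99 (SE 1.54) for Cd3d, 2.95 (SE 1.17) for Cd2, 5.54 (SE 2.27) for Cd83 and 2.60 (SE 1.09) for Cd164. Below 0, the 2 with the smallest p were -3.94 (SE 2.21) for Cd320 and -2.31 (SE 1.39) for Cd74. With 1 array left out these 2 ran from -5.03 to -1.81 and from -3.84 to -1.50. For Cd320, with 2 values in each other group, only NLS 0GH values could be left out. In WT, none was called (0%) and no member had an unadjusted p under 0.05, beside 2.9% of all spots. The 2 in each direction with the smallest p were 2.81 (SE 1.48) for Cd55b spot B, 0.90 (SE 0.67) for Cd47 spot B, -1.67 (SE 0.86) for Cd44 spot B and -2.57 (SE 1.44) for Cd247. The values of Cd44 spot B and Cd247 rest on WT 0GH b and WT 1GH c, which stand apart in the values above. With 1 array left out they ran from -2.63 to -0.60 and from -4.04 to -0.47. That of Cd55b spot B ran from 1.16 to 3.84, and neither of its 2 WT 0GH values could be left out. The interaction, which tests the difference between the receptor differences at 1GH and 0GH, passed in no member or spot (0%), with no member at an unadjusted p under 0.05, beside 2.99% of spots. The 2 in each direction with the smallest p were an interaction of 6.86 (SE 3.05) for Cd83, 3.60 (SE 1.73) for Cd164, -5.87 (SE 3.28) for Cd320 and -1.41 (SE 0.86) for Cd86, with adjusted p = 1.0 in limma for each. With 1 array left out, that of Cd320 ran from -6.95 to -3.72 and that of Cd86 from -1.91 to -0.83. For Cd320, again only NLS 0GH values could be left out.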

How the data were processed

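Total RNA of 12 samples was measured on 2-colour arrays. The deposited values are read as log2 ratios, with the base inferred from their range of -14.6 to 18.2. Per the series' design text, the authors fitted a Lowess curve of log ratio on log intensity with 50% of the data at each point and set control-channel values below 200 to 200. The sources used here give neither the scanner nor the background method nor the numerator.

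All values were multiplied by -1, since 37 of 39 embryo tissue genes lay on the sample side as deposited. On single arrays 80.0% to 94.6% lay on the reference side after the turn. The median of 11243 spots valued on all arrays was subtracted from each array. Of 23040 spots, 906 controls were left out. Symbols came from the platform annotation, and 16249 spots matched RefSeq genes by Entrez identifier with no symbol changed. Spots with at least 2 values in each group were fitted singly by lmFit and eBayes of limma 3.58.1 (R 4.3.3) to the 12 arrays, with 4 group means and no block, two-sided, with Benjamini-Hochberg adjustment and a threshold of 0.05. A level is the mean of the 4 group means, so with missing values it differs from the plain mean. Tables were handled in Python 3.11.15 with pandas 2.3.3, numpy 2.4.6 and matplotlib 3.10.9.

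The letters pair the arrays: red dye incorporation was 19.3, 19.8 and 17.9 for b, c and d in all groups, and deviations from group means had correlations of 0.04 to 0.27 for arrays of one letter, and of -0.19 to 0.06 where letter and group both differed. The letter was therefore a block in an alternative fit. The others were the centring, quantile normalization, the missing-value filter, averaged spots, extreme ratios set aside, green dye incorporation as a covariate and each array left out. The fit was tested on simulated data with the means, missing values and spread of the real spots and no letter effect. For NLS minus WT averaged over 0GH and 1GH, it recovered 14 of 100 spots shifted by 2 log2 units. Of 100 spots shifted by 4 it recovered 44, and 6 unshifted spots were called. Most shifts of these sizes were thus missed, so the lack of a call does not show the lack of a difference. The shifted spots were drawn from all tested spots, where the SE of this difference had a median of 0.72, against 0.62 over the members. Recovery for the members alone was not tested.

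The members and lists were chosen with earlier results of these data known. All members may be named. Array values are given for the 10 highest and 10 lowest among members valued on all arrays and for those with the smallest p in the comparisons, 5 per direction for NLS minus WT and 2 per direction otherwise.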

Additional observations from a re-analysis of the deposited data

How the results depend on the processing

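Under the alternatives run, no level or difference of a named member turned its direction while called. The count of members above the array median was 12 and ran from 11 to 15 over the other settings, with 14 under the replicate block. The count below was 11, with 13 under the replicate block, 7 without centring, and 7 to 12 with 1 array left out. The 7 came without NLS 0GH replicate c, where 44 members could be tested. With 1 array left out the count above ran from 10 to 12. The replicate block and the single arrays left out gave 0 members called in every NLS minus WT, 1GH minus 0GH and interaction comparison, as did the other alternatives. Without centring, the median level of all spots was 0.30 and 3536 spots were called above and 2025 below, against 2855 and 4010 with centring. Centred on all spots with a value, they were 3947 and 3187. Of the levels and differences named by the rule, which leave out some members below, 458 kept their side of the threshold under the other settings, 6 lost the call and 2 gained it. With arrays left out, 638 kept it, 9 lost it and 5 gained it. Among all tested members, leaving out centring ended the level calls of Cd2, Cd22, Cd52 and Cd160 (adjusted p = 0.0796, 0.55, 0.151 and 0.156) and added those of Cd37 and Cd44 spot B. Centring on all spots with a value ended the calls of Cd2 and Cd22 (0.0558 and 0.124) and added those of Cd44 spot B, Cd84 and Cd163. The green dye covariate ended the calls of Cd22 and Cd63 (0.0541 and 0.0578) and added that of Cd81 (0.0409). Quantile normalization ended that of Cd63 (0.0662) and added those of Cd74 (0.032), Cd55b spot B (0.0492), Cd84, Cd86 and Cd163. Setting extreme ratios aside and requiring a value on all arrays each added Cd81 (0.0494 and 0.0416). The replicate block ended the call of Cd2, added calls for Cd84, Cd163, Cd68, Cd81 and Cd86 and changed no other level call. Its error of a level leaves out the spread between letters, so the added calls do not cover that spread. The cause of these changes was not tested, except that with an array left out fewer spots pass the filter. The sign of all levels rests on the embryo tissue genes, dyes were not swapped, and the sources used here give no signal over background.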
